A study of Mus musculus with 3 samples.

Results

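The 10 Wnt ligand genes Wnt1, Wnt2, Wnt4, Wnt5a, Wnt5b, Wnt6, Wnt9a, Wnt9b, Wnt11, and Wnt16 were followed in skin-resident macrophages of the mouse through telogen, the resting phase of the hair follicle. They are 10 of the 19 Wnt genes among the 19752 genes named on the array. They were selected on measured values of these same arrays, in that the study had drawn its own shortlist of Wnt genes from them and these 10 lay outside it, so every value below is a description. The Te group (early telogen) holds CD11b+Gr1−F4/80+ cells sorted by FACS from the backskin of CD1 mice at day 42 after birth, the Tm group (mid telogen) the same cells at day 55, and the Tl group (late telogen) the same cells at day 69. The labels name no transgene or treatment for any group, and the study's text gives another day for Te than the label does. RNA was pooled from 3 littermate mice per stage, amplified as a whole transcriptome, given the Cy3 dye, and run on 1 array for each stage. Stage, pool of mice, and array therefore cannot be told apart, and no test between stages was possible.

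Wnt proteins are secreted, lipid-modified signals that bind Frizzled receptors on nearby cells. Canonical ligands act with the coreceptors Lrp5 and Lrp6 to stabilize β-catenin, which turns on target genes together with TCF/LEF factors, whereas ligands such as Wnt5a and Wnt11 are best known for β-catenin-independent signals that steer cell polarity and movement. In skin, Wnt/β-catenin signaling is needed for hair follicles to form and for resting follicle stem cells to start a new growth phase.

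The sequences ahead of 4 of the genes are shown because they frame the main contrast in the data: Wnt9a was higher on both later arrays, whereas Wnt9b, Wnt4, and Wnt11 were at least 2-fold lower on both. Each sequence covers the 250 bases before the annotated start, 5′ to 3′ on the strand of the gene, from RefSeq (GRCm38.p6). Capitals mark matches, on either strand, to the GC box (GGGCGG), to the TCF/LEF motif (CTTTGNT), and to the E box (CACGTG), and neighbouring matches can run together. The Wnt9a window lies at chr11:59306680-59306929 (+), the Wnt9b window at chr11:103749822-103750071 (−), the Wnt4 window at chr4:137277385-137277634 (+), and the window of the first of 2 Wnt11 starts at chr7:98834862-98835111 (+).
Wnt9a: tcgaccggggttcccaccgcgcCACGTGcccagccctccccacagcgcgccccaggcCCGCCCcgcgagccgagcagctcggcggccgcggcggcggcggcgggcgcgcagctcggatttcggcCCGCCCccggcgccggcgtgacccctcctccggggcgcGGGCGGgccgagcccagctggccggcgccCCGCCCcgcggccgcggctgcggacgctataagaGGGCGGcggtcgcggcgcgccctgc
Wnt9b: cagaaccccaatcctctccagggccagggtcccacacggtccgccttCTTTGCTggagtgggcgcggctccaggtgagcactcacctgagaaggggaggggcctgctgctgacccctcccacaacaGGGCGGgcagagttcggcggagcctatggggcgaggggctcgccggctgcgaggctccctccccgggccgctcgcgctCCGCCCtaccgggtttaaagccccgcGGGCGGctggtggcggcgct
Wnt4: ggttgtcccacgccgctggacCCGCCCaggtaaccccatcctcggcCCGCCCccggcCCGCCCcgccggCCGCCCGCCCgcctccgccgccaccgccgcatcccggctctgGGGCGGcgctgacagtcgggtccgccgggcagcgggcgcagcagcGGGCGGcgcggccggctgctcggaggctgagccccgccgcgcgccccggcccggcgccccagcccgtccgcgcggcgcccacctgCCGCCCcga
Wnt11: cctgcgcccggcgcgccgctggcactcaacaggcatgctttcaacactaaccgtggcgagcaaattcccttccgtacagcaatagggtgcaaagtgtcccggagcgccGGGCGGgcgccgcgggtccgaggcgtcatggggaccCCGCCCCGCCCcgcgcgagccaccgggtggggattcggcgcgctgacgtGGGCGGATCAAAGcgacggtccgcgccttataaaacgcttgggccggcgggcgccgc

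The Wnt9a window held 48 CG dinucleotides, 84.4% G or C, 5 GC boxes, 1 E box, and 0 matches to the TCF/LEF motif. Of 32851 RefSeq windows of the same length, 0.186% held as many CG dinucleotides or more, and the median was 6. The Wnt4 window was similar in composition, with 44 CG dinucleotides and 8 GC boxes counted with overlaps, although the change of Wnt4 had the opposite sign. The Wnt9b window held 22 CG dinucleotides, 3 GC boxes, and 1 TCF/LEF match, and the Wnt11 window held 37 CG dinucleotides, 4 GC boxes, and 1 TCF/LEF match that adjoins a GC box. At least 1 GC box was present in 32.7% of all windows, at least 1 TCF/LEF match in 16.0%, and at least 1 E box in 6.02%. Of the 10 genes 9 had an entry, with 12 windows in all, and the remaining TCF/LEF matches were 1 before Wnt1 and 2 before the third Wnt5b start. These matches describe letters and not binding.

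Levels below are log2 signals relative to the 75th percentile of the array, and a change is the difference of 2 levels. The 10 genes are covered by 12 probes with 1 spot each, and Wnt1 and Wnt16 have 2 probes, of which the brighter represents the gene. The only error that could be measured is that of repeated spots: the spot SD given with a level is the median SD of the 50 replicated probes nearest to it in level, and it covers no difference between mice or between hybridizations. All 3 arrays were of 1 color and lay on 1 slide. Between 59.66% and 71.4% of the 55681 probes were well above background, and the 75th percentile of the signal was 414.0 (Te), 496.7 (Tm), and 927.1 (Tl). The authors also deposited a log2 table in which the Tm column matches the scanner file of Tl and the Tl column that of Tm, with 99.9% and 99.8% of the probes within 0.05. The arrays are called here as their scanner files are assigned, and exchanging them exchanges the Tm and Tl values of every gene below.

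In bulk RNA, fewer cells of a type and less RNA per cell cannot be told apart. All 15 macrophage markers on the array were well above background on all 3 arrays, among them Itgam (CD11b) at 8.95, 8.73, and 7.85 and Adgre1 (F4/80) at 4.83, 5.51, and 5.15 on the Te, Tm, and Tl arrays. All 15 keratinocyte markers were also well above background on every array. At Tl 14 of them were higher than at Te (54.7% of all genes were), and at Tm 15 were (55.8%). At least 13 were higher on each later array under every scaling. The lowest log2 change at Tm was that of Itga6, 0.0067 (0.06 at Tl). Among the higher markers were Krt5, a keratin of basal epidermis, with a log2 change of 3.32 at Tl and 3.97 at Tm, and Cdh1 (E-cadherin) with 4.56 and 4.52. Trp63, a transcription factor of basal keratinocytes, was at 8.03, 8.04, and 7.35. The summed linear level of the keratinocyte list, in units of the 75th percentile, was 281 (Te), 423 (Tm), and 291 (Tl), and that of the macrophage list was 959, 833, and 584. Trp63 alone made up 93.2% of the keratinocyte sum at Te. The other 14 markers summed to 19.1 (Te), 159.4 (Tm), and 128.2 (Tl), and over the scalings tried their ratio to Te ranged from 5.82 to 15.02 at Tl and from 5.93 to 12.3 at Tm. With Trp63 the ratio at Tl was 1.04 and ranged from 0.90 to 2.32. That of the macrophage list was 0.61 at Tl and ranged from 0.53 to 1.36. Itgam, the brightest macrophage marker on each array, weighs most in that sum. Of the 15 macrophage markers 11 were lower at Tl (45.3% of all genes were) and 10 at Tm (44.2%). Their median log2 changes were −0.35 and −0.44. With median scaling 10 of the 15 were higher at Tl, and without scaling 13 were. The median of the list at Tl was then 0.17 and 0.82, below the 0.65 and 1.32 of all genes under the same settings.

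Of the 10 Wnt genes 9 were well above background on each array, compared with 77.7% of all genes at Te, 70.5% at Tm, and 77.0% at Tl. At Tl 1 of the 9 measured genes was higher than at Te (54.7% of the 16164 genes with a value were) and 8 were lower (45.3% of all genes), but without scaling between arrays 5 were higher and 4 lower, and with median or quantile scaling 3 were higher. All shares in this paragraph belong to the reported scaling. The median change of all genes at Tl was 1.32 without scaling, 0.65 with median scaling, and 0.30 with quantile scaling. That of the 9 genes was 0.12, −0.53, and −0.93, lower in each case. As reported, at least 2-fold differences at Tl were found for 1 higher gene (22.2% of all genes) and 5 lower genes (20.7%). At Tm 2 genes were higher than at Te (55.8% of the 15843 genes with a value) and 7 were lower (44.2%), with 4 higher under median scaling, 3 under quantile scaling, and 1 when the 75th percentile was taken over probes detected on all arrays. At least 2-fold differences at Tm were found for 1 higher gene (29.1%) and 3 lower genes (16.9%). Wnt9a alone reached 10-fold, in the upward direction and on both arrays, as did 0.668% of all genes at Tl and 1.12% at Tm. None of the 9 was 10-fold lower, whereas 0.464% of all genes at Tl and 0.316% at Tm were.

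The median change of the 9 genes was −1.05 at Tl and −0.90 at Tm, and that of all genes was 0.15 and 0.22. The 8 genes other than Wnt9a spanned −1.60 to −0.37 at Tl, with a median of −1.16, and −1.37 to 0.23 at Tm, with a median of −0.94. Both comparisons share the Te array, so a low or high Te value enters both.

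**Figure D1:**
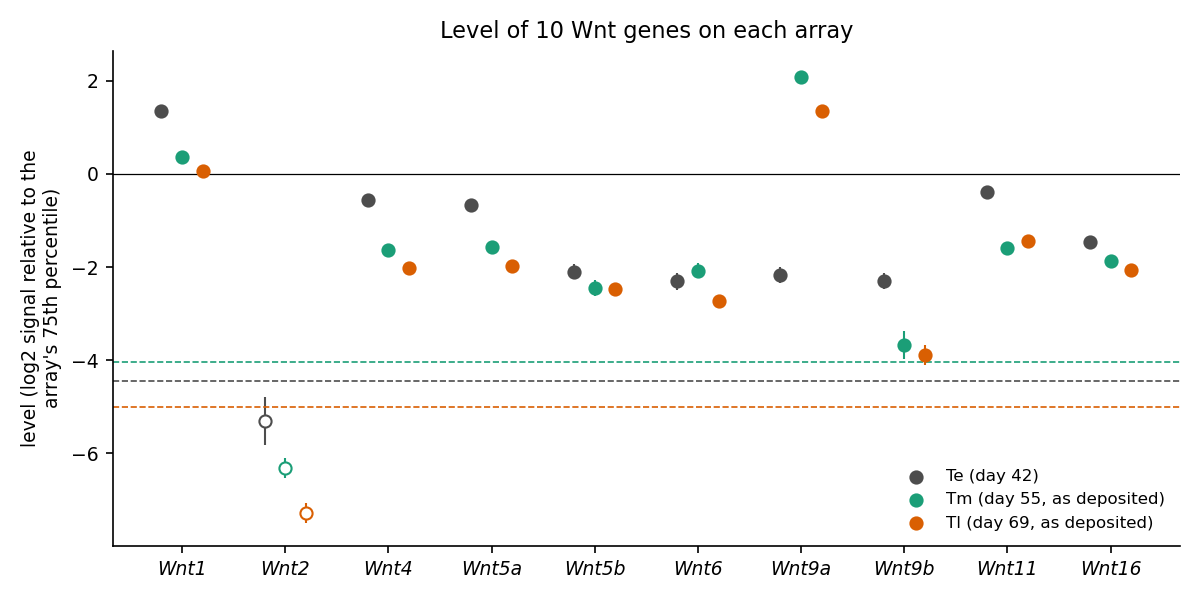
Level of each of the 10 Wnt genes (brighter probe) on the Te, Tm, and Tl arrays, in log2 signal relative to the 75th percentile of the array. Bars are the spot SD, open points are not well above background, and dashed lines mark the dimmest signal well above background for the array of that color. Wnt9a goes from −2.18 at Te to 2.08 and 1.35, and the 3 Wnt2 points lie below all dashed lines.

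Wnt9a had the largest change of the 9 measured genes on both later arrays, and it was upward. Its product is a secreted ligand known for its part in joint and skeletal development. The level was −2.18 (Te), 2.08 (Tm), and 1.35 (Tl), with spot SDs of 0.17, 0.08, and 0.10, from signals of 91.7, 2100.5, and 2369.0. Its 1 probe was well above background on all 3 arrays, so that both changes are measured and not bounds. Thus, Wnt9a went from below to above the 75th percentile of the array.

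The log2 change of Wnt9a was 3.53 at Tl (11.5-fold higher, spot SD of the change 0.20) and 4.26 at Tm (19.1-fold higher, 0.19), which is 17.77 and 22.22 times the spot SD. Among genes measured on both arrays, 46 of 14162 (0.325%) had a larger change at Tl and 36 of 13249 (0.272%) at Tm. Across 10 other ways of scaling, background correction, filtering, and probe choice the change ranged from 2.89 to 4.69 at Tl and from 3.49 to 4.81 at Tm. The keratinocyte markers moved the same way, with a median log2 change of 3.21 at Tl and 3.29 at Tm, and their part in the Wnt9a values was not tested.

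The 5 genes whose pair of changes from Te lay nearest to that of Wnt9a, by Euclidean distance over the 3 arrays and among 13077 genes well above background on all of them, were Dlg5, Ptgs1, Fads3, Dmkn, and Cobll1. Dlg5, a scaffold protein of cell polarity and junctions, was nearest, with log2 changes of 4.21 at Tm and 3.46 at Tl and a distance of 0.08. Ptgs1, which encodes cyclooxygenase-1, had changes of 4.34 and 3.51, and Dmkn, which encodes the secreted epidermal protein dermokine, 4.42 and 3.51. Fads3, a member of the fatty acid desaturase family, followed with 4.30 and 3.40 and Cobll1 with 4.07 and 3.54. Within a distance of 0.5 there were 32 genes.

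**Figure D2:**
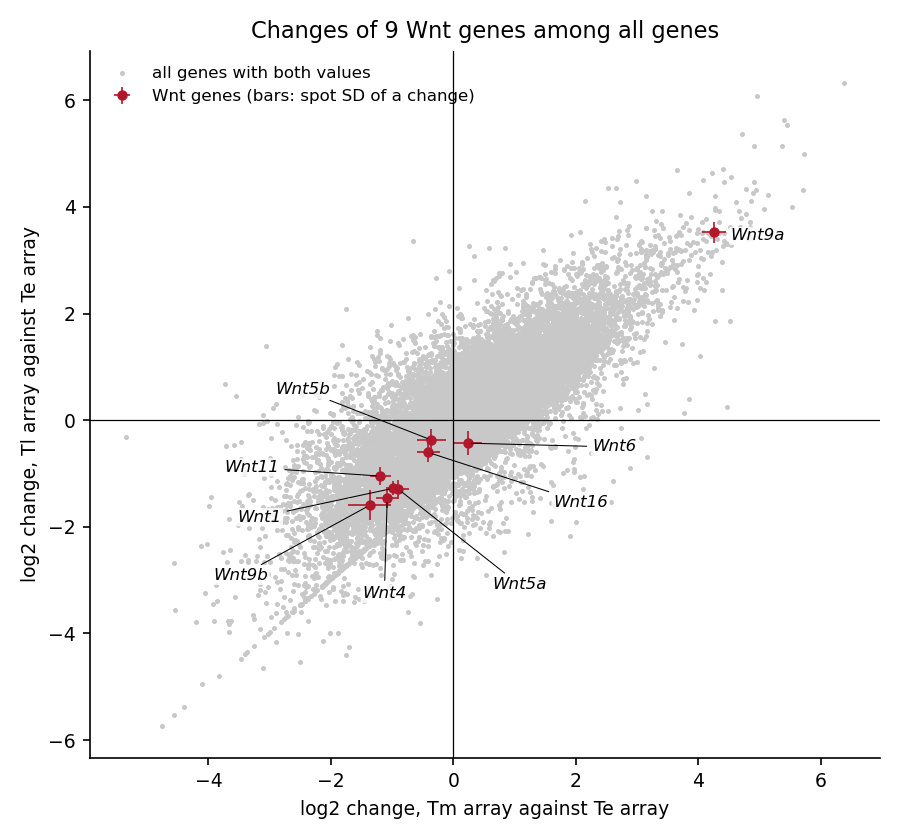
Log2 change of all genes with both values (grey) and of 9 Wnt genes (red, bars are the spot SD of a change) on the Tm array (x axis) and the Tl array (y axis), each against the Te array, which both axes share. Wnt9a lies at 4.26 and 3.53, and the other 8 lie at or below −0.37 on the y axis, where 4 of them are above 0 without scaling between arrays. Without scaling the median of all genes on that axis is 1.32.

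Wnt9b, the paralog of Wnt9a and a ligand known from kidney tubule formation, had the lowest change of the measured genes on both arrays. Its level was −2.30 (Te), −3.67 (Tm), and −3.90 (Tl), with spot SDs of 0.18, 0.30, and 0.21. The signals were 84.0, 39.0, and 62.2, and on the Tm array the dimmest signal above background was 30.2. The later levels thus lie near the limit of detection, and the spot SD is larger there than for the other measured genes.
The log2 change of Wnt9b was −1.60 at Tl (3.02-fold lower, spot SD 0.28) and −1.37 at Tm (2.58-fold lower, 0.35). At Tl 6.23% of the genes measured on both arrays had a lower change, and at Tm 7.63%. Hence Wnt9a and Wnt9b differed from Te in opposite directions on both later arrays, under each of the 10 other settings described below. Of these, the filters and the probe choice cannot change either value.

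Wnt4, a ligand of kidney and female reproductive tract development, had levels of −0.56 (Te), −1.64 (Tm), and −2.02 (Tl), with spot SDs of 0.12, 0.13, and 0.13. The log2 change was −1.46 at Tl (2.76-fold lower, spot SD 0.18) and −1.08 at Tm (2.11-fold lower, 0.18). Te was the highest of the 3 arrays, by 8.32 and 6.13 times the spot SD of a change.

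Wnt11, which guides cell movement in early development, had levels of −0.39 (Te), −1.59 (Tm), and −1.44 (Tl), with spot SDs of 0.11, 0.12, and 0.12. It was 2.07-fold lower at Tl (log2 change −1.05, spot SD 0.17) and 2.28-fold lower at Tm (−1.19, 0.17). The signal before scaling was 314.9 at Te and 341.1 at Tl, so that without scaling the change at Tl has the opposite sign, 0.12.

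Wnt5a, a β-catenin-independent ligand also known from inflammatory macrophages, had levels of −0.67 (Te), −1.57 (Tm), and −1.97 (Tl), with spot SDs of 0.12, 0.12, and 0.13. The log2 change was −1.30 at Tl (2.46-fold lower, spot SD 0.17) and −0.90 at Tm (1.86-fold lower, 0.17). Its close relative Wnt5b was at −2.10, −2.46, and −2.47, with spot SDs of 0.16, 0.17, and 0.13. The change of Wnt5b was −0.37 at Tl and −0.36 at Tm, only 1.79 and 1.55 times the spot SD, and with quantile or median scaling it was above 0 on both arrays. Of the 2 relatives, only Wnt5a therefore kept its sign under each scaling.

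Wnt1, the founding member of the family and a ligand of brain development, had levels of 1.35 (Te), 0.37 (Tm), and 0.07 (Tl) on its brighter probe, with spot SDs of 0.08, 0.10, and 0.10. The log2 change was −1.28 at Tl (2.42-fold lower, spot SD 0.13) and −0.98 at Tm (1.97-fold lower, 0.12). The other Wnt1 probe was at −0.41, −1.28, and −0.96, with changes of −0.56 at Tl and −0.87 at Tm. Both probes were thus highest at Te, but they differed in the order of the later arrays: the brighter probe was lower at Tl than at Tm, and the other one was higher by 0.31. Without scaling the other probe was higher at Tl than at Te, by 0.61 on the log2 scale.

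Wnt16, which is known from bone and joint tissue, was at −1.46, −1.87, and −2.07 on its brighter probe on the Te, Tm, and Tl arrays, with spot SDs of 0.13, 0.14, and 0.13. The log2 changes were −0.60 at Tl (1.52-fold lower, spot SD 0.18) and −0.41 at Tm (1.33-fold lower, 0.19). The sign was the opposite without scaling at Tl (0.56) and with median scaling at Tm (0.15). The other Wnt16 probe was at −2.02 at Te and −3.05 at Tl and was not well above background at Tm, where its signal was 22.7. Taken at the dimmest signal well above background on that array, 30.2, its value was at least 4.07-fold lower than at Te. Both probes were highest at Te, but without scaling both were higher at Tl than at Te.

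Wnt6, a canonical ligand expressed in epithelia, was the gene whose later arrays lay on either side of Te. Its level was −2.31 (Te), −2.08 (Tm), and −2.74 (Tl), with spot SDs of 0.18, 0.16, and 0.14. The log2 change was −0.43 at Tl and 0.23 at Tm, 1.89 and 0.95 times the spot SD, and each sign turned under at least 1 other scaling. Wnt2 was well above background on none of the 3 arrays, with signals of 10.5, 6.2, and 5.9 at Te, Tm, and Tl, and no fold is given for it.

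Comparing the later arrays directly, 8 of the 9 genes were lower at Tl than at Tm and 1, Wnt11, was higher by 0.14, whereas without scaling all 9 were higher at Tl. Over all 14846 genes with a value, 57.3% were lower and 42.7% higher. None of the 9 differed by 2-fold or more, as 11.3% of all genes did downward and 7.85% upward, and none by 10-fold (0.128% and 0.0539%). Wnt9a, with a log2 change of −0.73 (1.66-fold lower, 5.67 times the spot SD), and Wnt6, with −0.66 (3.07 times), had the largest differences. For Wnt5b, Wnt9b, Wnt11, and Wnt16 the difference was at most 1.0 times the spot SD. Because the spot SD covers no difference between mice or hybridizations, the order of Tm and Tl was resolved for none of the 9 genes. The median change of all genes in this comparison was −0.15.

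Among the 10 genes 4 have another Wnt gene as their direct neighbour in the RefSeq annotation (GRCm38.p6), with 0 protein-coding genes between them. These pairs allow a gene and its neighbour to be followed on the same arrays. Wnt9a neighbours Wnt3a, which was not well above background at Te and Tm and was so at Tl, at −4.15, a log2 change of at least 0.29 from Te. Wnt9b neighbours Wnt3, which was not well above background at Te and was at −3.64 at Tm and −2.84 at Tl. Wnt3 was hence higher by at least 0.80 at Tm and 1.60 at Tl on the log2 scale, whereas Wnt9b was lower on both.
Wnt6 neighbours Wnt10a, which was not well above background at Te and was at 0.42 at Tm and −0.33 at Tl, a log2 difference of at least 4.86 and 4.11 from Te. Wnt6 itself was within 0.43 of its Te level on both arrays. Wnt1 neighbours Wnt10b, which was well above background on none of the 3. In none of the 4 pairs did both genes have measured changes from Te, because every neighbour was not well above background at Te.

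**Figure D3:**
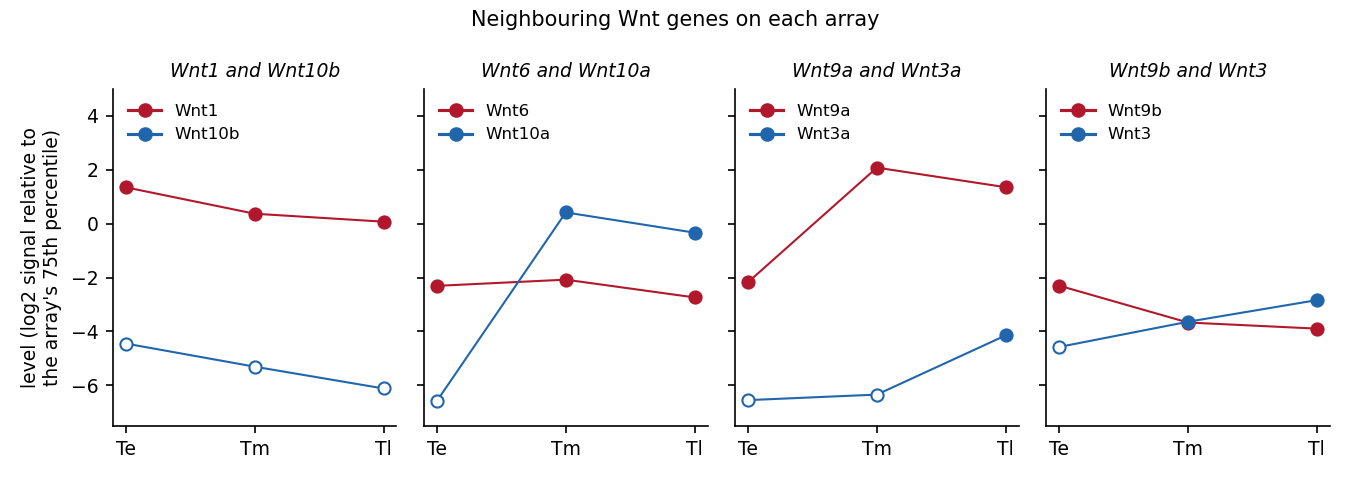
Levels of 4 Wnt genes (red) and of the Wnt gene next to each in the genome (blue) on the Te, Tm, and Tl arrays, in log2 signal relative to the 75th percentile of the array, and open points are not well above background. All 4 neighbours are open at Te, and the levels of different genes come from different probes and are not to be set against each other.

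The other genes of the pathway were described by lists. Of 8 of the 9 other Wnt genes on the array, 2 were well above background at Te, 6 at Tm, and 7 at Tl, compared with 9, 9, and 9 of the 10 followed here. At Tl 5 of these 8 were higher (54.7% of all genes were) and 2 lower than at Te, with a median change of 1.06. All 5 higher values are bounds. At Tm 4 were higher (55.8%) and 2 lower, with a median of 1.25 over 4 bounds and 2 measured values. A gene dim at Te has a value only where its bound lies above 0. The medians stayed above 0 under each scaling, but mostly through such bounds. The 2 genes measured on both arrays were lower, by −1.15 and −1.09 at Tl and −0.55 and −1.63 at Tm. Without scaling all 7 values at Tl were above 0. Their summed linear level was 3.06 (Te), 2.93 (Tm), and 2.63 (Tl), but higher on both later arrays with median scaling or none. Thus most of these other Wnt genes were dim at Te and most of the 10 were not, a difference that the choice of the genes fixes in part.

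Of 9 genes for Wnt secretion, 7 were higher and 2 lower at Tl (median 0.90), and 8 were higher and 1 lower at Tm (median 0.74), where 54.7% and 55.8% of all genes were higher. With quantile normalization or the percentile over detected probes 6 of the 9 were higher at Tm. The share of all genes was not counted under these settings. The median change of all genes at Tm was 0.32 with the first and −0.16 with the second. The median of the list stayed above 0 under each scaling, with the least change at Tm under quantile normalization, 0.29. Wls, the carrier that takes Wnt proteins to the cell surface, had levels of −1.62 (Te), −0.03 (Tm), and 0.58 (Tl), a log2 change of 2.20 at Tl and 1.60 at Tm. Porcn, which attaches the lipid to Wnt proteins, was at −1.84, −0.53, and −0.75. The lowest change was that of Tmed5, a cargo receptor of the early secretory route, with −0.56 at Tl and −0.46 at Tm.

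Of the 16 receptors and coreceptors, 8 were higher and 8 lower at Tl (median −0.24), and 5 of 15 with a value were higher and 10 lower at Tm (median −0.52), but with quantile or median scaling both medians were above 0, and without scaling 14 of the 16 were higher at Tl. Fzd10 had levels of −2.85 (Te), 0.86 (Tm), and 0.32 (Tl), with log2 changes of 3.71 and 3.17 at Tm and Tl. The coreceptor Lrp5 was at 1.01, 0.02, and −0.32, a change of −1.33 at Tl. Of 15 secreted antagonists 10 had a value, 5 higher and 5 lower at Tl (median −0.14) and 3 higher and 7 lower at Tm (median −0.44), and here too both medians were above 0 with quantile or median scaling. Under these scalings the medians of the receptors and of the antagonists were still below those of all genes on both arrays. The BMP and Wnt antagonist Sostdc1 had the highest measured change at Tl, 3.04 (2.59 at Tm), and the decoy receptor Sfrp5 the lowest, −1.40 (−0.55 at Tm).

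Of 14 genes known as targets of Wnt/β-catenin signaling 12 had a value at Tl, 7 higher and 5 lower (median 0.09), and 10 had a value at Tm, 5 higher and 5 lower (median −0.09). Rnf43, a ubiquitin ligase that removes Frizzled from the surface, had levels of −2.71 (Te), 1.27 (Tm), and 0.80 (Tl), with log2 changes of 3.98 and 3.51. Axin2, the most used reporter of the pathway, was at −2.28, −0.88, and −1.80, with changes of 1.40 at Tm and 0.48 at Tl. Lef1, which encodes a nuclear partner of β-catenin, had the lowest change at Tl, −1.71. The target list as a whole was thus divided, and its median ranged from −0.12 with the percentile over detected probes to 1.25 without scaling at Tl.

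**Figure D4:**
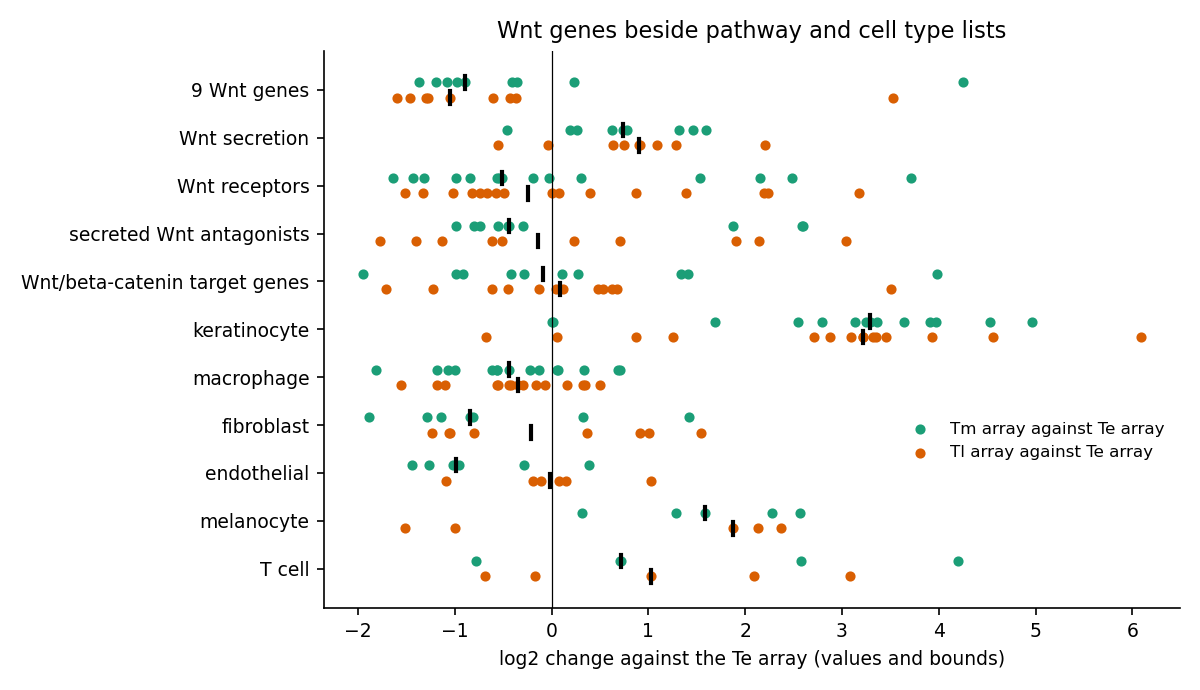
Log2 change at Tm and at Tl against Te of 9 Wnt genes and of the genes of pathway and cell type lists, with a black bar at the median, where a gene dim on 1 array is plotted at its bound. The Wnt genes have medians of −0.90 and −1.05 with Wnt9a far to the right, and the keratinocyte list has medians of 3.29 and 3.21.

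Lists of other cell types were uneven. The Langerhans and dendritic cell list, of which 3 genes are on the array, had a summed linear level of 18.2 (Te), 129 (Tm), and 74.1 (Tl). The T cell list had 1.93, 6.29, and 3.70, the melanocyte list 1.74, 5.64, and 5.59 (Tyrp1 not well above background at Te), and these 3 sums were higher on both later arrays under each scaling, as Wnt9a was. Single markers were divided. At Tl 3 of 5 T cell, 3 of 5 melanocyte, and 2 of 3 Langerhans and dendritic cell genes were higher (54.7% of all genes were). At Tm 4 of 5, 5 of 5, and 2 of 3 were (55.8% of all genes). The fibroblast list had 93.6, 48.4, and 51.3 (Pdgfra not well above background at Te and Tm), the endothelial list 20.5, 12.0, and 18.5, and the mast cell list 3.46, 1.52, and 1.06 (Fcer1a not well above background at Te, nor Kit, Cpa3, Mcpt4, and Fcer1a at Tm). The fibroblast, endothelial, mast cell, and macrophage sums were thus lower on both later arrays, as Wnt1, Wnt4, Wnt5a, Wnt5b, Wnt9b, Wnt11, and Wnt16 were. Among genes with a value, 4 of 8 fibroblast, 3 of 6 endothelial, and 2 of 4 mast cell genes were lower at Tl (45.3% of all genes were). At Tm 5 of 7, 5 of 6, and 4 of 4 were (44.2% of all genes). Without scaling, the sums at Tl were higher than at Te for fibroblasts (1.23 times), endothelial cells (2.02 times), and macrophages (1.36 times), and the macrophage sum was also higher at Tm (1.04 times). The median log2 change of all genes without scaling was 1.32 at Tl and 0.52 at Tm. With median scaling the endothelial sum was higher at Tl (1.30 times) and the macrophage sum at Tm (1.28 times), and with quantile normalization the macrophage sum at Tl (1.08 times), whereas that of the mast cell list stayed lower under each scaling. Tpsb2 (1.67 at Te), the brightest mast cell gene on each array, weighs most in that sum. By gene, 1 of 4 was higher at Tl with the percentile over detected probes, and 4 of 5 were with quantile normalization or no scaling. The adipocyte list had 31.9, 39.8, and 29.9, with Lep well above background on none of the 3 and Adipoq not so at Tm and Tl. Fabp4, at levels of 4.99, 5.31, and 4.90, weighs most in that sum. The median log2 change was −0.21 at Tl and −0.85 at Tm for fibroblasts, −0.02 and −0.98 for endothelial cells, −0.21 and −0.58 for mast cells, 1.03 and 0.71 for T cells, 1.88 and 1.58 for melanocytes, and 2.13 and 2.73 for the Langerhans and dendritic cell list. The part of these cells in the Wnt values was not tested.

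The gene nearest in pattern to each remaining member came from a denser part of the data than for Wnt9a. It was Cyp2d10 for Wnt1, Arf5 for Wnt4, Rbbp6 for Wnt5a, Gpat2 for Wnt5b, Ssc4d for Wnt6, Kif19a for Wnt9b, 4933411K16Rik for Wnt11, and Dpp8 for Wnt16, over the same 3 arrays, at distances of 0.0038 to 0.0228. Within a distance of 0.5 lay 578 genes for Wnt9b, the fewest of these 8 members, and 1367 for Wnt5b, the most.

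Under the other settings, Wnt1, Wnt4, Wnt5a, and Wnt9b were lower than at Te and Wnt9a was higher, on both later arrays and in all 10, where Wnt1 stands for its brighter probe or the median over its probes. The range at Tl was −1.48 to −0.11 for Wnt1, −1.67 to −0.30 for Wnt4, −1.50 to −0.13 for Wnt5a, and −1.80 to −0.43 for Wnt9b. At Tm it was −1.35 to −0.42, −1.45 to −0.52, −1.27 to −0.34, and −1.74 to −0.75 for the same genes. The values nearest to 0 at Tl came without scaling, where the median of all genes was itself 1.32 higher at Tl than at Te. The filters among the 10 leave a gene measured on both arrays unchanged, so they are no check of its sign.

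**Figure D5:**
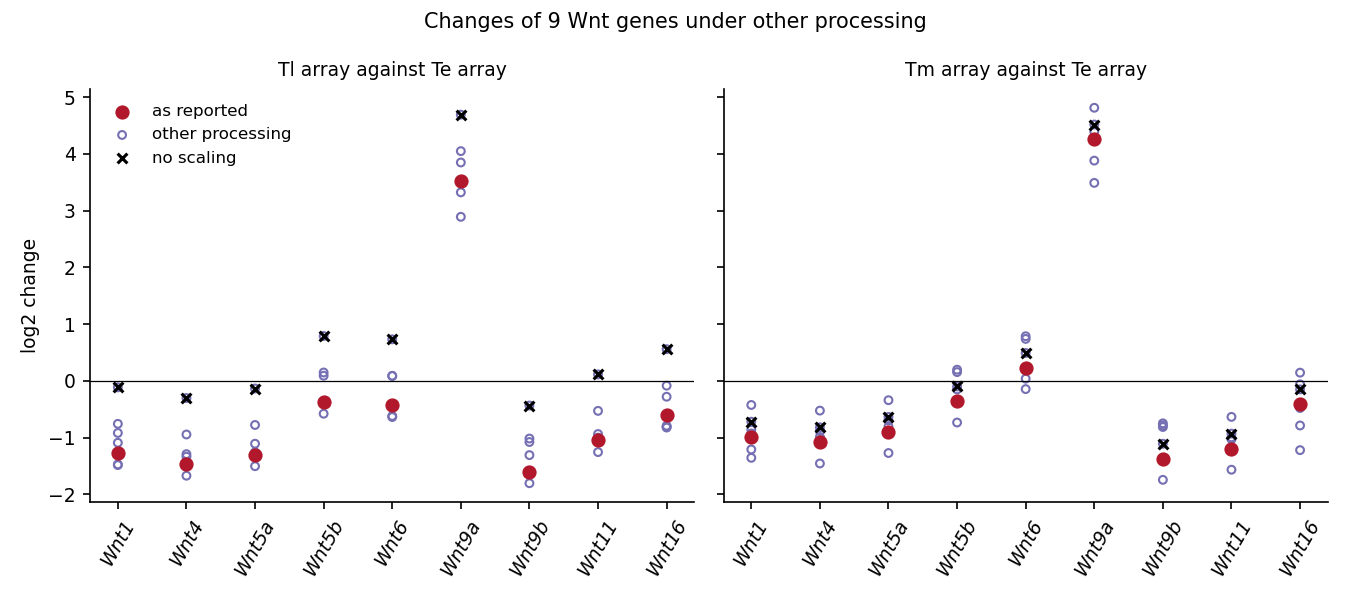
Log2 change of 9 Wnt genes at Tl and at Tm against Te as reported (red), under other processing (open circles), and without scaling between arrays (crosses). Wnt9a lies between 2.89 and 4.81 throughout, and Wnt5b, Wnt6, Wnt11, and Wnt16 have values on both sides of 0 in the Tl panel.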

How the data were processed

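Macrophage RNA of 3 stages was measured on 1-color Agilent arrays. The authors quantified the images with Feature Extraction 10.7.3.1 and deposited, per array, the background-corrected intensity of each spot, not normalized between arrays, and 0/1 quality flags. They also deposited a table of log2 values of 36409 probes, whose normalization is not given in the sources used here. Each of its probes has a median of 0 over the arrays and a range of at least 1.0, and the columns have medians of 0.36, 0, and 0. Spots of a probe were averaged after control spots and outlier spots (162, 274, and 281 at Te, Tm, and Tl) were left out, and log2 values were set relative to the array's 75th percentile. No spot was saturated. A probe was well above background when at least 0.5 of its spots were so flagged. With 1 array well above background, the change is a bound against the higher of the dim signal and the lowest signal well above background. RefSeq transcripts (GRCm38.p6) named 26056 of 55681 probes, and the brightest probe represented a gene.

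The number of arrays limits the precision. Named genes are all members, Wnt neighbours, and genes nearest in pattern. In the secretion, receptor, antagonist, and target lists the extreme genes measured on both arrays at Tl are also named. In the cell type lists the extreme genes were not named by rule, and genes not well above background are named. Krt5, Cdh1, Trp63, Itgam, Adgre1, Porcn, and Axin2 were chosen for their roles after their values were seen. Itga6, Tpsb2, and Fabp4 were named for their values. Members and lists were chosen with earlier results of these data known. Alternatives were other scalings, normexp (limma 3.58.1 in R 4.3.3, offset 50), filters, outlier spots, probe choice, the log2 table, and exchanged Tm and Tl arrays. The reference to the median of all genes and the keratinocyte sum without Trp63 were added after seeing the data. Steps ran in Python 3.11.15 with pandas 2.3.3 and were tested on simulated data.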

Additional observations from a re-analysis of the deposited data

Results flagged for a closer look

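Wnt6 was the only one of the 9 measured genes with opposite signs on the later arrays, a log2 change of −0.43 at Tl and 0.23 at Tm against the same Te array. The difference between them was not tested. Both changes are less than 2 times the spot SD of a change.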

How the results depend on the processing

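The number of genes well above background did not move by over 1.5 times under any of its alternatives. The median change of all genes at Tl and Tm against Te was 0.15 and 0.22 as reported, −0.05 and −0.16 with the 75th percentile of the probes that all arrays detected, 0.30 and 0.32 with quantile normalization, 0.65 and 0.86 with median scaling, and 1.32 and 0.52 without scaling. For Tl against Te, 1 gene was higher as reported, 3 with quantile or median scaling, 5 without scaling (4 lower), and 2 with the arrays exchanged, and 5 of the 6 genes with a value were lower in the authors' table. For Tm against Te, 2 were higher as reported, 4 with median scaling, and 1 with the percentile over detected probes, with the arrays exchanged, and in the authors' table. For Tl against Tm, 1 was higher as reported, 2 relative to the median of all genes (chosen after seeing the data) or with the percentile over detected probes, 3 with the median over probes, 0 with normexp, 9 without scaling (0 lower), 8 with the arrays exchanged (1 lower), and 5 in the authors' table (1 lower).

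Of 315 changes of single genes under alternatives, 189 stayed within the spot SD, 85 moved further in the same direction or toward 0, and 41 changed sign. The filters return the same value for a gene measured on both arrays, as the median over probes does for a gene with 1 probe. Part of the 189 is therefore automatic and does not measure stability. At Tl against Te the sign changed without scaling for Wnt5b (0.79), Wnt6 (0.73), Wnt11 (0.12), and Wnt16 (0.56), with quantile normalization for Wnt5b (0.092) and Wnt6 (0.088), with median scaling for Wnt5b (0.15) and Wnt6 (0.091), and with the arrays exchanged for Wnt6 (0.23). At Tm against Te it changed with median scaling for Wnt5b (0.20) and Wnt16 (0.15), with quantile normalization for Wnt5b (0.16), and for Wnt6 with the percentile over detected probes (−0.14) and the arrays exchanged (−0.43). At Tl against Tm it changed without scaling for Wnt1 (0.61), Wnt4 (0.52), Wnt5a (0.50), Wnt5b (0.89), Wnt6 (0.24), Wnt9a (0.17), Wnt9b (0.67), and Wnt16 (0.71). Exchanging the arrays turned all 9 by construction, to 0.30 for Wnt1, 0.38 for Wnt4, 0.40 for Wnt5a, 0.012 for Wnt5b, 0.66 for Wnt6, 0.73 for Wnt9a, 0.23 for Wnt9b, −0.14 for Wnt11, and 0.19 for Wnt16. The authors' table gave 0.30 for Wnt1, 0.39 for Wnt4, 0.40 for Wnt5a, 0.73 for Wnt9a, 0.23 for Wnt9b, and −0.14 for Wnt11. The median over probes turned Wnt1 (0.0094) and Wnt16 (0.40), normexp turned Wnt11 (−0.0047), and the percentile over detected probes turned Wnt5b (0.16). The cause of the other sign changes was not tested. No paired analysis was possible because each stage has 1 array.

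With 1 array per stage, changes cannot be set against a spread between mice, and the spot SD understates the error. Signals near background limit Wnt2 and, on the later arrays, Wnt9b. Which of the later arrays is Tm and which is Tl differs between the scanner files and the log2 table, so no order between them is given weight.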
